A study of Mus musculus with 18 samples.

Results

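The genes described here set the balance between glucose production and glucose use in liver. They are the gluconeogenic enzyme genes *Pcx*, *Pck1*, *Fbp1* and *G6pc*, the glycolytic enzyme gene *Pklr*, the genes *Pfkfb1* and *Pfkfb3* for the bifunctional enzymes that switch between both pathways, and the coactivator gene *Ppargc1a*. They were taken by gene symbol, by a rule that sets no threshold on a value, although the genes were proposed with earlier results of these data known, and all 8 were found, each as 1 row, among 37303 genes. Expression was measured by poly-A RNA-Seq in liver from 18 mice, 3 in each of 6 groups. WT mice and mice homozygous for a whole-body deletion, either of *Gcn2* (*Gcn2*-/-) or of *Atf4* (*Atf4*-/-), all bred on a C57BL/6J background, were injected intraperitoneally once daily on 8 days. They received asparaginase (ASNase, 3 IU/g body weight), an enzyme drug that depletes blood asparagine and, less so, glutamine, or phosphate buffered saline (PBS). Livers were taken 7.5 h after the last injection by the sample labels, and age began at 8 weeks and ended at 12 weeks in the protocol or at 16 weeks in the sample characteristics. Both sexes were used, with 1 male of 3 in WT PBS, *Gcn2*-/- PBS and *Gcn2*-/- ASNase and 2 males of 3 in WT ASNase, *Atf4*-/- PBS and *Atf4*-/- ASNase. Because both deletions affect every tissue from conception, effects that begin in liver cannot be told apart from effects of other organs.

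Gluconeogenesis runs from pyruvate and oxaloacetate to free glucose. Pyruvate carboxylase (*Pcx*) makes oxaloacetate in mitochondria, the cytosolic phosphoenolpyruvate carboxykinase (*Pck1*) turns it into phosphoenolpyruvate, fructose bisphosphatase (*Fbp1*) removes a phosphate from fructose bisphosphate, and the catalytic subunit of glucose 6-phosphatase (*G6pc*) releases glucose from its phosphate, also when glycogen is broken down. Liver pyruvate kinase (*Pklr*) drives the last step of glycolysis, in the opposite direction. Glucagon and fasting raise transcription of *Pck1*, *G6pc* and *Ppargc1a* through cyclic AMP, while insulin lowers *Pck1* and *G6pc* through inhibition of FoxO factors. GCN2, encoded by *Eif2ak4*, is an eIF2 kinase activated by amino acid shortage, which lets cells translate more of the transcription factor ATF4.

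Promoter sequences are shown for *G6pc*, the gene whose difference between groups met the calling rule, and for *Pck1*, *Fbp1* and *Ppargc1a*, whose lowest level was in the same group and at least 2-fold under their highest. Each line is the strand of the gene, 5′ to 3′, and ends at the base before the RefSeq start site (build GRCm38.p6, the same assembly as mm10). The *Pck1* stretch is chr2:173152823-173153072 on the plus strand, that of *G6pc* is chr11:101367466-101367715 on the plus strand, that of *Fbp1* is chr13:62888283-62888532 on the minus strand and that of *Ppargc1a* is chr5:51567726-51567975 on the minus strand. Capitals mark matches on either strand to 5 motifs, namely the TGACG core of the cyclic AMP response element, the FoxO insulin response sequence (CAAAACA), the E-box (CACGTG), the core of the C/EBP-ATF response element (TGATGNA) and the TATA box (TATAAA).
Pck1: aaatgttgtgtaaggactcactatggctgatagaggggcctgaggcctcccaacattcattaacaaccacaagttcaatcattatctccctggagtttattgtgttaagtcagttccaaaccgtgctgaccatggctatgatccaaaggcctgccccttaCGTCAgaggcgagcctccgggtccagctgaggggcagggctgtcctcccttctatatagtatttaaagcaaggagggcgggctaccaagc
G6pc: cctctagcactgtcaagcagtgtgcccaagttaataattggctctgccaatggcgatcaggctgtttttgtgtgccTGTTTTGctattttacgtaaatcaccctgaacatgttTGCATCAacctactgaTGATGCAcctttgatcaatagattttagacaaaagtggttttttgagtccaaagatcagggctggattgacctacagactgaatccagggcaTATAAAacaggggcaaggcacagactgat
Fbp1: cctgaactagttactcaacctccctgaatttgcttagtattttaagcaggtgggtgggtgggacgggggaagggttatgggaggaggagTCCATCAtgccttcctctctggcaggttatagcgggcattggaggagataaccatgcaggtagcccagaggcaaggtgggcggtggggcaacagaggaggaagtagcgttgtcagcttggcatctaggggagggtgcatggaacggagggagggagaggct
Ppargc1a: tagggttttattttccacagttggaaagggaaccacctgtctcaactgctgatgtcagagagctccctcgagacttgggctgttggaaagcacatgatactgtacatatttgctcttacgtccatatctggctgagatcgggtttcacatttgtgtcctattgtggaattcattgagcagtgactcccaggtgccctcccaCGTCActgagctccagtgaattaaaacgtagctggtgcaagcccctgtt

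The *G6pc* stretch held 4 matches, none overlapping another. A FoxO sequence lay 174 to 168 bases before the start on the opposite strand, C/EBP-ATF cores lay 137 to 131 bases before it on the opposite strand and 121 to 115 bases before it on the gene's strand, and a TATA box lay 29 to 24 bases before it. *Pck1* held a single TGACG core, 90 to 86 bases before its start, and *Ppargc1a* held one 49 to 45 bases before its start, both on the opposite strand. *Fbp1* held a single C/EBP-ATF core, 161 to 155 bases before its start. Among 32851 RefSeq promoters of the same length, the TGACG core was present in 17.8%, the FoxO sequence in 5.56%, the E-box in 6.02%, the C/EBP-ATF core in 10.4% and the TATA box in 12.4%. The stretches before the other genes' start sites held a C/EBP-ATF core and a TATA box for *Pklr*, an E-box for *Pcx*, C/EBP-ATF cores and a TATA box for *Pfkfb1*, and TGACG cores and an E-box for *Pfkfb3*. These matches describe letters only, and binding was not measured.

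**Figure D1:**
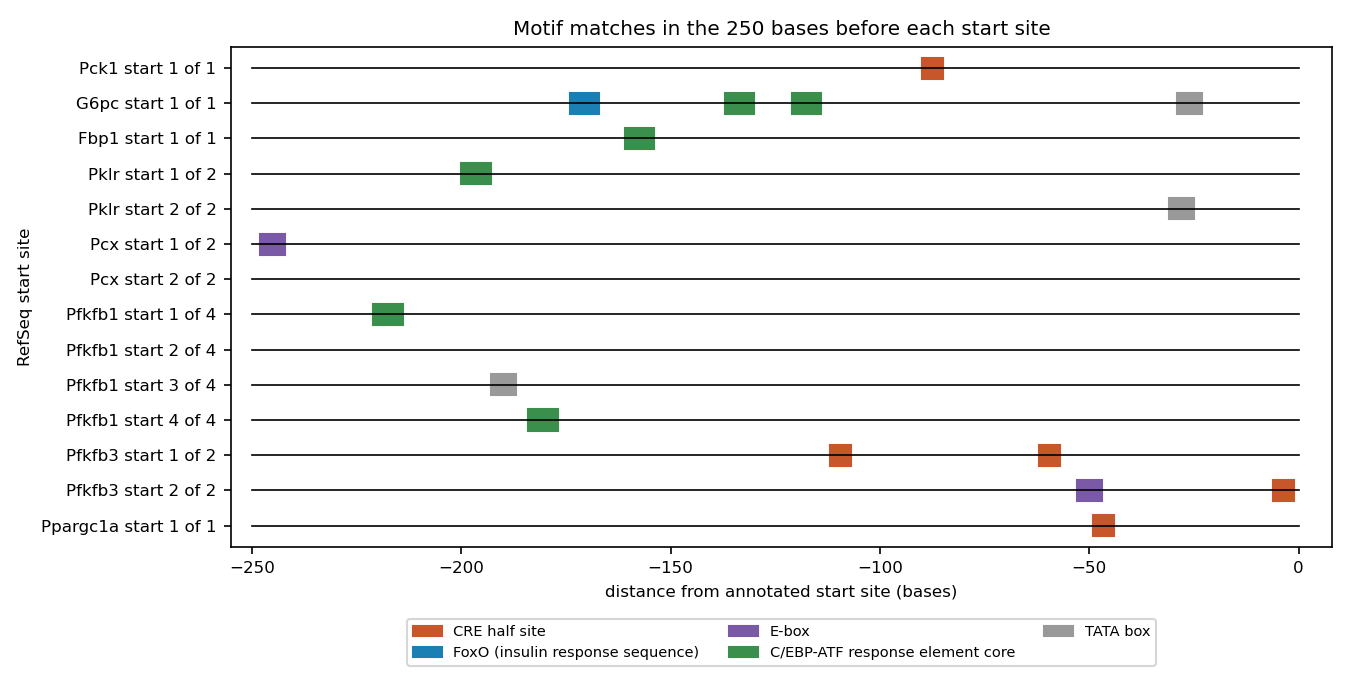
Motif matches in the 250 bases before each RefSeq start site of the 8 genes, one line for each start site, with distance from the start in bases on the horizontal axis and a coloured box for each match. The line of G6pc has 4 matches, more than any other line, and the second start sites of Pcx and Pfkfb1 have none.

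Levels are given in FPKM, read counts scaled by transcript length and by library size, a unit in which genes of different length can be compared. The deposited table gives 1 value per group, estimated by Cuffdiff from 3 libraries together, with the low and high bound of an interval. Values of single mice and read counts were not used here, so no difference has a replicate check, no p-value is given and the depth of each library is not known from the table. A difference between groups was called when both values had status OK and were above 0, either FPKM was over 3, the difference in log2(FPKM + 0.1) was over 1.5 in either direction, and the intervals did not overlap. *Ppargc1a* never had an FPKM over 3 and so could not be called in any of the 9 comparisons, and the other 7 genes were eligible in each of them.

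Hepatocyte markers were abundant in every group, and markers of other cell types differed between groups. For 7 hepatocyte marker genes with status OK, the FPKM summed after PBS and after ASNase to 24809 and 20461 for WT, 27644 and 13756 for *Gcn2*-/-, and 24071 and 14602.5 for *Atf4*-/-, and all 7 were over 1 FPKM in every group. *Alb*, the albumin gene, was listed at 0 in every group with a failed status and was not used. *Serpina1a* did not have status OK in every group and was not used either. It was listed at 0 in *Atf4*-/- PBS and at 714 to 1615 FPKM in the other groups. The sum of 15 skeletal muscle markers was, in the same order, 1061 and 1497 for WT, 10.8 and 12.9 for *Gcn2*-/-, and 88.7 and 197 for *Atf4*-/-. The sum of 8 pancreatic acinar markers was 373 in *Atf4*-/- ASNase, with all 8 over 1 FPKM, and 5.47 to 69.0 in the other groups. The sum of 6 erythroid markers was 11.5 in *Gcn2*-/- ASNase and 7.05 in *Atf4*-/- ASNase, against 145 to 258 elsewhere. Markers of macrophages and neutrophils summed to between 99.9 and 248, those of adipocytes to at most 20.05 and those of renal tubule to at most 1.23. *Atf4* itself was at 32.3 and 29.3 FPKM in *Atf4*-/- PBS and ASNase against 50.4 to 68.1 elsewhere, while *Eif2ak4* was at 2.31 and 2.96 in *Gcn2*-/- and at 2.19 to 3.14 in the other groups, a gene-level value that does not separate the deleted part from the rest of the transcript.

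*G6pc* had the widest spread among the 8 genes and was the only one called. It fell after ASNase in *Atf4*-/- livers, and under ASNase it was lower in *Atf4*-/- than in WT livers. *G6pc* (ENSMUSG00000078650) lies at chr11:101367561-101377903 on the plus strand. In WT livers it was at 202 FPKM after PBS (interval 103 to 301) and 168 after ASNase (71.9 to 264). In *Gcn2*-/- livers it was at 80.2 (25.8 to 135) and 67.1 (17.2 to 117), and in *Atf4*-/- livers at 154 (78.5 to 229) and 40.8 (21.4 to 60.2). The *Atf4*-/- ASNase interval therefore ended below the start of the intervals of *Atf4*-/- PBS and of both WT groups, but overlapped both *Gcn2*-/- groups. In *Atf4*-/- livers the level after ASNase was 3.77-fold lower than after PBS, a log2 difference of -1.91. In this comparison 1 of 7 eligible genes was called, and 4.63% of 9485 eligible genes in the whole table were called lower and 7.37% in either direction. Under ASNase the *Atf4*-/- level was 4.11-fold lower than in WT, a log2 difference of -2.04. Here too 1 of 7 was called, against 5.66% of 9577 genes called lower and 8.25% in either direction. Both comparisons share the *Atf4*-/- ASNase group, and the sexes were matched in number within each.

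In bulk liver, fewer hepatocytes and less *G6pc* RNA per hepatocyte cannot be told apart. From *Atf4*-/- PBS to *Atf4*-/- ASNase, 6 of the 7 hepatocyte markers were lower, from *Ttr* (3541 to 854 FPKM) and *Cyp2e1* (4522 to 1150) to *Ahsg* (7359 to 6669), and *Tat* was higher (952 to 2013), so the markers did not move as one. The acinar sum was higher and the erythroid sum lower, as given above. Their part in the *G6pc* difference was not tested.

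In *Gcn2*-/- livers *G6pc* was low already without ASNase. Under PBS it was 2.52-fold lower than in WT (log2 difference -1.33), under ASNase the difference was -1.32, and both were short of the size limit, with overlapping intervals. The PBS difference was larger than the combined interval of its pair of values, meaning the root of the summed squared distances to the facing bounds, and this held, whatever the size, for 1.30% of 8920 eligible genes in the lower direction. ASNase moved *G6pc* little in *Gcn2*-/- livers (-0.26) and in WT livers (-0.27). The change in *Atf4*-/- was lower than the change in WT by 1.64 on the log2 scale, with a combined error of 1.62 from the intervals of the 4 groups, so it passed, by a narrow margin, the rule for a difference of responses, which asks for over 1.5 and over the combined error. None of the other 6 eligible genes passed that rule in any pair of strains. For *Atf4*-/- against WT, 6.56% of 9698 genes passed it. The same difference against *Gcn2*-/- was -1.65 with an error of 2.11 and did not pass.

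**Figure D2:**
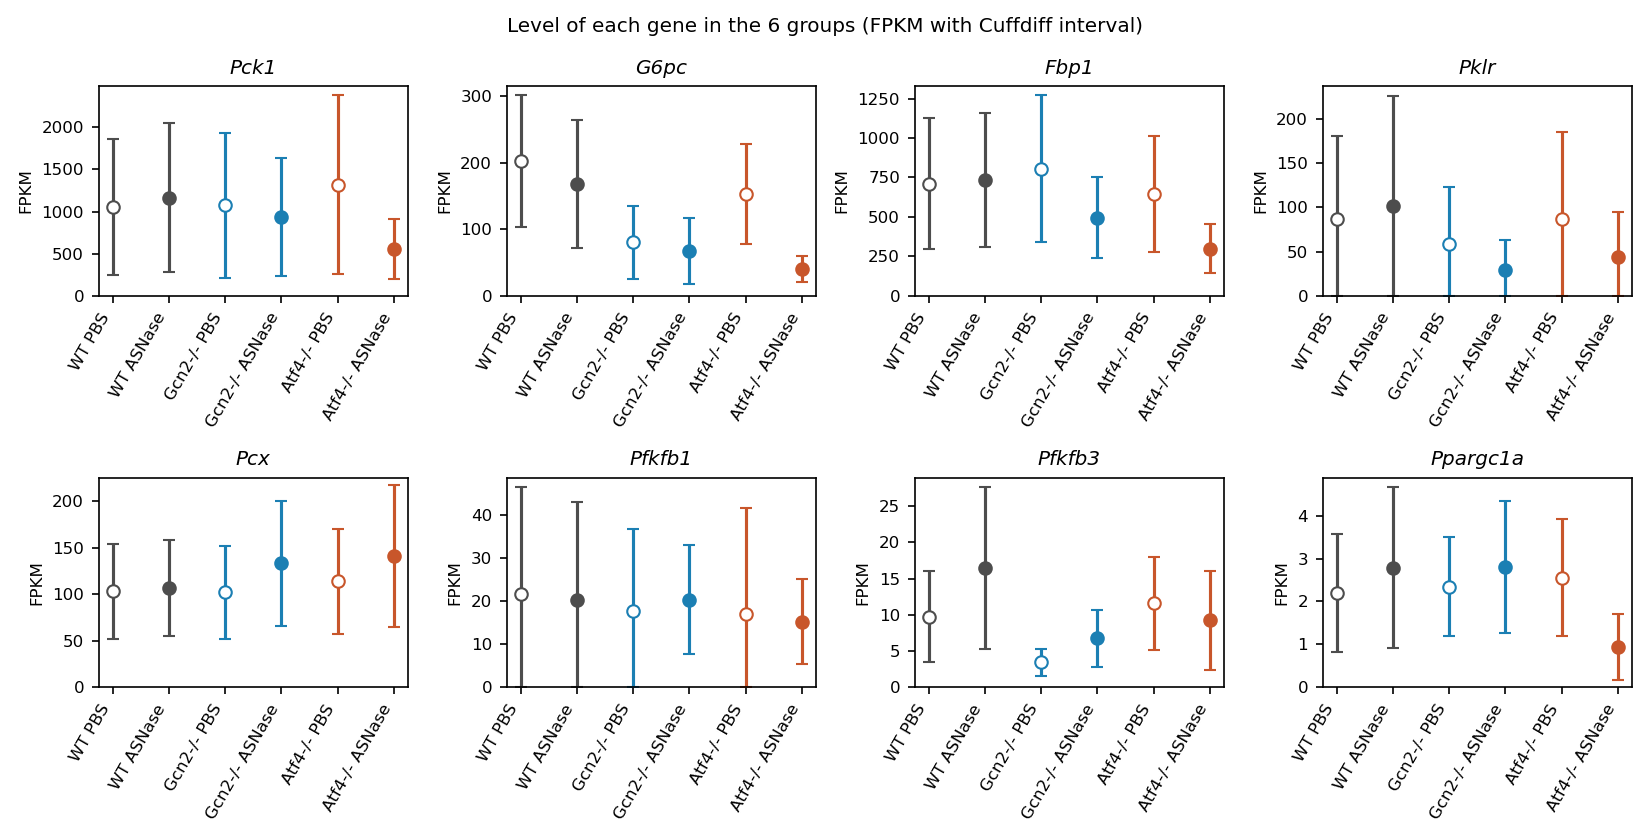
FPKM of each gene in the 6 groups, open circles for PBS and filled circles for ASNase, with bars from the low to the high bound of the Cuffdiff interval and every axis starting at 0. The G6pc bar of Atf4-/- ASNase, which ends at 60.2, lies below the bars of both WT groups and of Atf4-/- PBS, while the bars of Pck1, Fbp1, Pklr, Pcx, Pfkfb1 and Ppargc1a overlap among all 6 groups.

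*Pck1* was the most abundant of the 8 genes in every group. The gene (ENSMUSG00000027513) lies at chr2:173153048-173159273 on the plus strand. After PBS and after ASNase its FPKM was 1051 and 1166 for WT, 1074 and 933 for *Gcn2*-/-, and 1317 and 557 for *Atf4*-/-. The lowest was *Atf4*-/- ASNase, and the other 5 groups lay between 933 and 1317. Its intervals were wide, 253 to 2382 in *Atf4*-/- PBS and 203 to 911 in *Atf4*-/- ASNase, so the 2.36-fold lower level after ASNase (log2 difference -1.24) lay within the error of the values. Against WT under ASNase the difference was -1.07.

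*Fbp1* followed the same order at its low end. It (ENSMUSG00000069805) lies at chr13:62864753-62888282 on the minus strand. The FPKM after PBS and ASNase was 711 and 736 for WT, 806 and 495 for *Gcn2*-/-, and 646 and 299 for *Atf4*-/-. Both deletion strains were lower after ASNase than after PBS, -0.70 on the log2 scale for *Gcn2*-/- and -1.11 for *Atf4*-/-, against 0.05 for WT. The interval of 144 to 454 in *Atf4*-/- ASNase overlapped every other group, the highest of their low bounds being 338 in *Gcn2*-/- PBS.

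*Pcx* went the other way. It (ENSMUSG00000024892) lies at chr19:4510472-4621752 on the plus strand. Its PBS and ASNase levels were 103 and 107 FPKM for WT, 102 and 134 for *Gcn2*-/-, and 114 and 141 for *Atf4*-/-. It was the only one of the 8 genes highest in *Atf4*-/- ASNase, but its highest and lowest groups differed just 1.38-fold, and the interval of 65.3 to 218 in the highest group covered all 5 other values. The gene overlaps *Lrfn4* on the opposite strand, and the libraries did not keep strand, so reads there could have come from either gene.

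*Ppargc1a*, whose product coactivates gluconeogenic gene transcription in fasting liver, was expressed at low level throughout. It (ENSMUSG00000029167) lies at chr5:51454250-51567726 on the minus strand. Livers given PBS and ASNase had 2.198 and 2.79 FPKM for WT, 2.34 and 2.81 for *Gcn2*-/-, and 2.56 and 0.941 for *Atf4*-/-. The lowest value was again that of *Atf4*-/- ASNase, 2.72-fold under *Atf4*-/- PBS (log2 difference -1.35), with intervals of 0.177 to 1.71 and 1.19 to 3.92 that overlapped. *Pck1*, *G6pc*, *Fbp1* and *Ppargc1a* thus shared their lowest group, and after ASNase in *Atf4*-/- their ratios to PBS were 0.423, 0.265, 0.463 and 0.368.

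*Pklr* was lowest after ASNase in *Gcn2*-/- livers. The gene (ENSMUSG00000041237) lies at chr3:89136142-89146784 on the plus strand. WT livers had 86.4 FPKM after PBS and 101 after ASNase, *Gcn2*-/- livers 58.7 and 29.4, and *Atf4*-/- livers 86.9 and 43.5. The log2 difference between ASNase and PBS was -0.998 in *Gcn2*-/-, -0.996 in *Atf4*-/- and 0.23 in WT. Under ASNase the *Gcn2*-/- level was 3.45-fold lower than that of WT, a log2 difference of -1.78 that was over the size limit. The low bound of *Pklr* was 0 in all 6 groups, so no pair of groups could be separated. Its locus was joined in the file with that of *Hcn3*, an overlapping gene on the opposite strand.

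*Pfkfb3*, an isoenzyme with mainly kinase activity, which promotes glycolysis, was lowest in *Gcn2*-/- livers under PBS. It (ENSMUSG00000026773) lies at chr2:11471433-11554077 on the minus strand, and the file's locus begins near the second of its RefSeq starts. It was at 9.75 FPKM after PBS and 16.5 after ASNase for WT, at 3.43 and 6.76 for *Gcn2*-/-, and at 11.6 and 9.26 for *Atf4*-/-. Both *Gcn2*-/- values lay under the other 4. Under PBS, *Gcn2*-/- was 2.84-fold lower than WT (log2 difference -1.48) and 3.38-fold lower than *Atf4*-/-, whose difference from *Gcn2*-/- was 1.73. The latter was over the size limit, but the intervals of 1.58 to 5.28 in *Gcn2*-/- PBS and 5.21 to 18.0 in *Atf4*-/- PBS overlapped at their ends. It was larger than the combined interval, and this held, whatever the size, for 1.36% of 9015 eligible genes in the higher direction. After ASNase the level was higher than after PBS in WT (0.75) and *Gcn2*-/- (0.96) and lower in *Atf4*-/- (-0.32), and none of these was called.

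*Pfkfb1*, the liver form of the bifunctional enzyme, varied least after *Pcx*. It (ENSMUSG00000025271) lies at chrX:150588229-150643878 on the plus strand. With PBS and with ASNase it was at 21.6 and 20.2 FPKM for WT, 17.7 and 20.4 for *Gcn2*-/-, and 17.0 and 15.2 for *Atf4*-/-. The highest was 1.42-fold above the lowest, and the low bound was 0 in 4 groups. The locus in the file also takes in *Apex2*, which overlaps *Pfkfb1* on the opposite strand, and *Alas2*, an erythroid gene.

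In the order of levels of each gene, no neighbouring groups had separate intervals. The highest and lowest groups were separate for *G6pc* (4.96-fold, WT PBS over *Atf4*-/- ASNase) and for *Pfkfb3* (4.81-fold, WT ASNase over *Gcn2*-/- PBS). The latter pair differed in both strain and treatment and was separated by bounds of 5.33 and 5.28. The distance from value to bound, as a median over groups, ranged from 49.6% of the value for *Pcx* to 115% for *Pklr*.

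**Figure D3:**
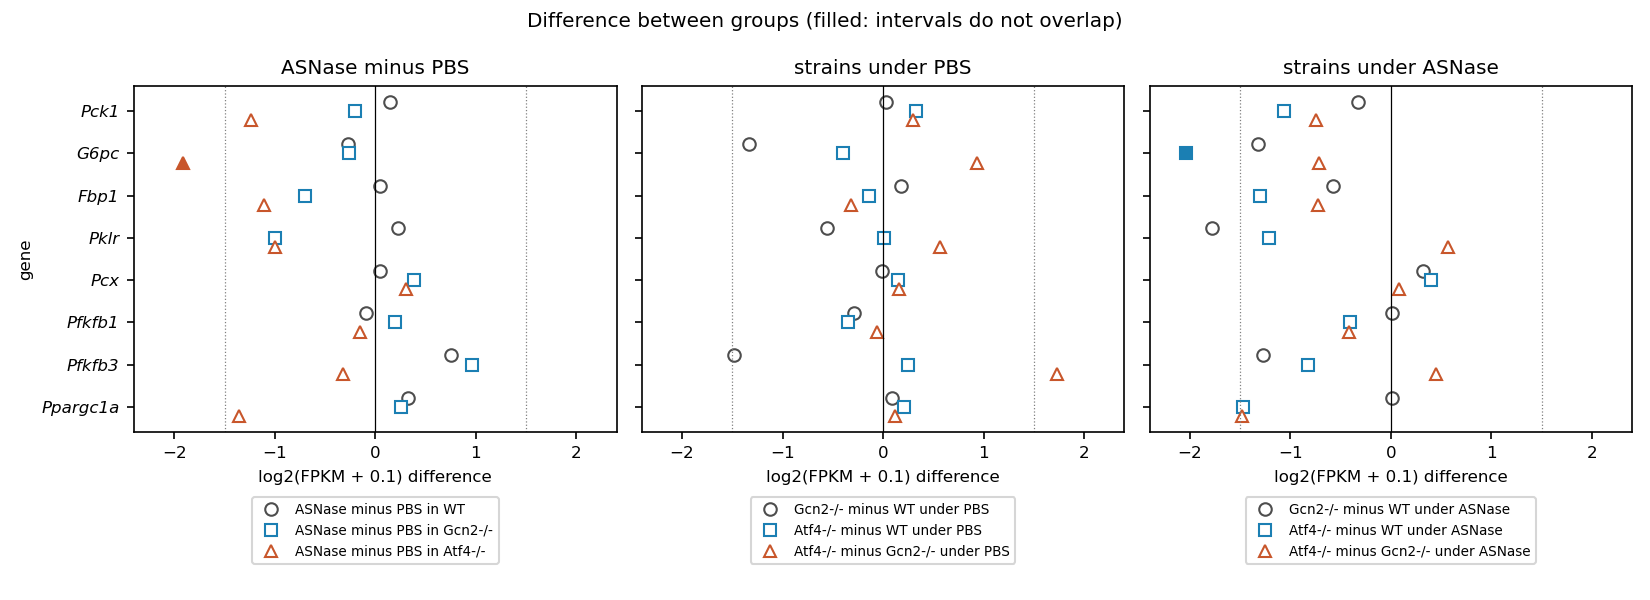
Difference in log2(FPKM + 0.1) for each gene in the 9 comparisons, with the first-named group minus the second, dotted lines at the size limit of 1.5, and filled symbols where the intervals of both groups do not overlap. The filled symbols are G6pc for ASNase minus PBS in Atf4-/- (-1.91) and for Atf4-/- minus WT under ASNase (-2.04), and Pklr (-1.78) and Pfkfb3 (1.73) pass the size limit with open symbols.

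Of the 7 eligible genes 6 had a negative and 1, *Pcx*, a positive difference between ASNase and PBS in *Atf4*-/- livers, and *G6pc* alone was called. The median log2 difference between ASNase and PBS was -0.996 in *Atf4*-/-, against 0.08 over all eligible genes, and 3 of 7 were lower by over 1, which held for 12.8% of all eligible genes. Between *Atf4*-/- and WT under ASNase the median was -1.07 against 0.07, and 4 of 7 were lower by over 1, against 14.1%. Since intervals were not used in these counts and both comparisons share the *Atf4*-/- ASNase group, they describe the list and give no support beyond the single values.

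In the other comparisons 0 of 7 genes were called. The share of all eligible genes called in either direction was 1.04% for *Gcn2*-/- against WT under PBS, 1.12% for *Atf4*-/- against WT under PBS, 0.976% for *Atf4*-/- against *Gcn2*-/- under PBS and 0.881% for ASNase against PBS in WT. It was 3.69% for ASNase against PBS in *Gcn2*-/-, 4.41% for *Gcn2*-/- against WT under ASNase and 3.19% for *Atf4*-/- against *Gcn2*-/- under ASNase. In *Gcn2*-/- livers the median of the list against WT was -0.28 under PBS, where 2 of 7 (*G6pc* and *Pfkfb3*) were lower by over 1 against 2.32% of all eligible genes, and -0.57 under ASNase, where 3 of 7 (*G6pc*, *Pklr* and *Pfkfb3*) were lower by over 1 against 8.00% of all eligible genes. These counts too used no intervals and were added after the data had been seen, so they only describe the list. In WT livers the median change after ASNase was 0.05, and no gene moved by over 1.

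The wider set of glucose genes held 97 genes in 6 lists, of which 76 to 81 were eligible in a comparison. After ASNase, 1 of 80 rose and 0 fell in WT, 2 of 79 rose and 1 fell in *Gcn2*-/-, and 2 of 80 rose and 5 fell in *Atf4*-/-. Over all eligible genes, 0.760% rose and 0.121% fell in WT, 1.56% and 2.13% in *Gcn2*-/-, and 2.74% and 4.63% in *Atf4*-/-, so the counts of the lists were near those of the whole table. Under ASNase, 4 of 81 were higher and 9 lower in *Atf4*-/- than in WT, against 2.59% and 5.66% of all eligible genes. The counts of single lists given next rest on few genes. The genes that fell with *G6pc* in *Atf4*-/- livers included *Slc2a2*, *Nr0b2*, *Ppp1r3c* and *Ppp1r3g*, of glucose transport, transcriptional repression and glycogen storage, and glycogen metabolism had the lowest list median, -1.11, with 2 of 12 genes called lower against the 4.63% above.

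Among gluconeogenic enzymes and genes of glucose release, 1 of 12 eligible fell after ASNase in *Atf4*-/- and none rose, against 4.63% and 2.74% of all eligible genes. The 1 that fell was *Slc2a2*, which encodes the hepatocyte glucose transporter. Its PBS and ASNase values were 110 and 145 FPKM for WT, 120 and 48.8 for *Gcn2*-/-, and 98.3 and 25.01 for *Atf4*-/-. The ASNase group of each deletion strain was thus the lower, and in *Atf4*-/- the difference from PBS was -1.97 and from WT under ASNase -2.53. *Pck2*, the mitochondrial counterpart of *Pck1*, was between 1.01 and 2.36 FPKM in all groups and never eligible.

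Among glycolytic enzymes, *Aldoc*, an aldolase gene, was lower in *Atf4*-/- under ASNase than in WT (-2.10) and than in *Gcn2*-/- (-2.38).

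A further 5 glycolytic and related genes were called between strains, and all had their highest levels in both WT groups, where the muscle marker sum was also highest. *Pgam2* and *Eno3*, muscle isoforms of phosphoglycerate mutase and enolase, *Pfkm*, the muscle phosphofructokinase, *Ldhb*, a lactate dehydrogenase subunit, and *Pdk4*, a kinase that inhibits pyruvate dehydrogenase, were lower in *Gcn2*-/- than in WT under ASNase, with log2 differences of -4.94, -3.16, -2.63, -3.17 and -2.23. In that comparison 6 of 81 eligible genes of the 6 lists were called, all lower, against 4.41% of all eligible genes in either direction. Under PBS *Pgam2*, *Ldhb* and *Pdk4* were also lower in *Gcn2*-/- than in WT, with log2 differences of -4.86, -2.94 and -1.99. The low levels were not particular to *Gcn2*-/-. In *Atf4*-/- ASNase *Pgam2*, *Eno3*, *Pfkm*, *Ldhb* and *Pdk4* were at 1.11, 12.3, 1.76, 2.93 and 2.98 FPKM. The WT ASNase values were 15.7, 32.7, 15.5, 12.7 and 10.8, and the *Pfkm* log2 difference was -3.06. *Eno3* is itself on the muscle list. The muscle sum was 1497 in WT ASNase and 12.9 in *Gcn2*-/- ASNase, and its part in these differences was not tested. From PBS to ASNase *Pfkm* went from 5.99 to 2.41 FPKM in *Gcn2*-/- and from 6.91 to 1.76 in *Atf4*-/-, both uncalled. The muscle sum in *Atf4*-/- went from 88.7 to 197. *Pkm*, the pyruvate kinase gene of muscle and most other tissues, rose after ASNase in *Gcn2*-/- from 5.36 to 20.9 FPKM (log2 difference 1.94). After PBS and ASNase *Pkm* was at 14.8 and 16.4 in WT and at 8.68 and 12.5 in *Atf4*-/-. The rise in *Gcn2*-/- thus started from the lowest of the 6 groups and ended near the WT ASNase value. *Pklr* was at its lowest in *Gcn2*-/- ASNase. From *Gcn2*-/- PBS to *Gcn2*-/- ASNase the muscle sum was 10.8 and 12.9, and the hepatocyte sum 27644 and 13756. The macrophage and neutrophil sum was 148 and 177, but its markers moved in opposite directions. *Lyz2* (54.1 to 134 FPKM), *Itgam* (0.457 to 5.83), *Cd68* and *Csf1r* were higher after ASNase. *Clec4f* (67.3 to 15.9), *S100a9* (5.64 to 0.171) and *S100a8* were lower. The part of cell types in the *Pkm* difference was not tested.

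*Pdk2*, another pyruvate dehydrogenase kinase gene, was at 57.3 FPKM in WT ASNase and 17.0 in *Atf4*-/- ASNase, a log2 difference of -1.74. It was the only called gene of 7 eligible for pyruvate transport and oxidation in that comparison, where 5.66% of all eligible genes were called lower. Of 11 genes for insulin and glucagon signaling, 2 were higher in *Atf4*-/- than in WT under ASNase, against 2.59% of all eligible genes. *Igfbp1*, whose product binds insulin-like growth factors and which insulin represses, had PBS and ASNase values of 83.7 and 98.1 FPKM for WT, 127 and 298 for *Gcn2*-/-, and 161 and 1663 for *Atf4*-/-. The difference between *Atf4*-/- and WT under ASNase was 4.08. Against *Atf4*-/- PBS the *Igfbp1* difference was 3.36, with an interval in *Atf4*-/- ASNase of 203 to 3123 that overlapped, so it was not called. *Irs2*, an adaptor of the insulin receptor, was at 2.67 in WT ASNase and 16.0 in *Atf4*-/- ASNase (2.55). *Gcgr*, the glucagon receptor gene, was at 138 in *Atf4*-/- PBS and 52.0 in *Atf4*-/- ASNase (-1.40), which was not called.

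Among 23 eligible transcription factors and coregulators, 2 rose and 1 fell after ASNase in *Atf4*-/-, against 2.74% and 4.63% of all eligible genes. *Nr0b2*, a nuclear receptor that represses other factors, was at 24.3 FPKM in *Atf4*-/- PBS and 1.03 in *Atf4*-/- ASNase, a difference of -4.43, and also fell in *Gcn2*-/- (-1.54). *Trib3*, a pseudokinase gene of the amino acid response, rose in WT from 5.46 to 19.5 FPKM and in *Atf4*-/- from 3.63 to 150, and was at 7.52 and 3.39 in *Gcn2*-/-. *Atf3*, a stress-induced factor, rose in *Atf4*-/- from 0.896 to 13.3 FPKM. It was also higher after ASNase in *Gcn2*-/- (1.07 and 3.60) and in WT (1.37 and 3.14), both uncalled. *Foxo1*, the FoxO gene of gluconeogenic control, lay between 6.46 and 10.1 in all groups, and *Mlxipl*, the glucose-sensing activator of *Pklr*, was lowest in *Gcn2*-/- ASNase at 36.7 FPKM against 86.7 to 128 elsewhere, uncalled. *Mlxipl* and *Pklr* thus shared their lowest group. In *Atf4*-/- ASNase, however, *Pklr* was also low at 43.5 FPKM, while *Mlxipl* was at 93.6. A link between both genes was not tested.

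In glycogen metabolism the called genes encode subunits that target protein phosphatase to glycogen. *Ppp1r3c* was at 16.0 FPKM in *Atf4*-/- PBS and 3.74 in *Atf4*-/- ASNase, a difference of -2.07, and was 15.0 and 24.5 in *Gcn2*-/-. *Ppp1r3g* was at 4.39 and 0.406 in *Atf4*-/- (-3.15). In *Gcn2*-/- it was at 3.05 and 0.136 (-3.73), with low bounds of 0 and overlapping intervals, so that fall was not called. *Ppp1r3b* rose in *Gcn2*-/- from 19.9 to 60.8 FPKM (1.60). It was at 46.2 after both treatments in WT and at 54.9 and 28.3 in *Atf4*-/-, so this rise started from the lowest group. In WT the 3 genes were not called after ASNase.

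**Figure D4:**
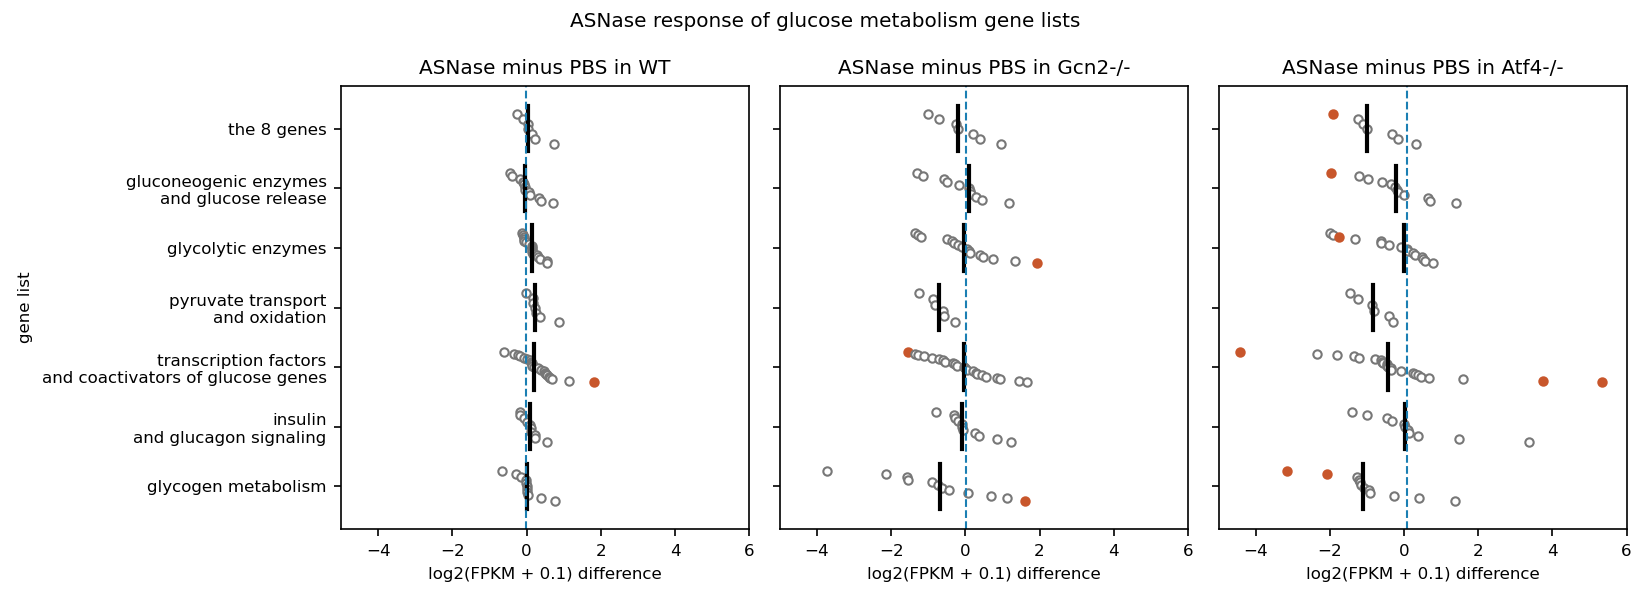
Difference in log2(FPKM + 0.1) between ASNase and PBS for the eligible genes of each list in WT, Gcn2-/- and Atf4-/- livers, with filled orange circles for called genes, black bars for list medians and a dashed line for the median of all eligible genes. The median of the 8 genes' list, over the 7 that were eligible, is 0.05 in WT, -0.20 in Gcn2-/- and -0.996 in Atf4-/-.

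Across the 6 groups the gluconeogenic genes varied together in part. Pearson's r was 0.90 for *Pck1* with *Fbp1* and with *Ppargc1a*, 0.82 for *Pck1* with *G6pc* and -0.94 for *Fbp1* with *Pcx*, and 0.12 for *Pck1* with *Pfkfb3*. The glycolytic gene *Pklr* had 0.84 with *G6pc*, 0.63 with *Fbp1* and 0.61 with *Pck1*, but 0.28 with *Ppargc1a* and -0.76 with *Pcx*. Varying together was thus not particular to the gluconeogenic genes. These are descriptions over 6 points that share 1 table and in several cases 1 extreme group. Among 9815 genes the closest to *G6pc* were *Prelp* (r = 0.99), *Slc29a1* (0.99) and *Elk3* (0.99), and to *Pck1* they were *Tppp*, *Slc12a7* and *Cyp2d37-ps* (each 0.99). For *Fbp1* they were *3110057O12Rik*, *Postn* and *Fads1* (0.9996, 0.999 and 0.999), and for *Ppargc1a* *Zmynd8*, *Pank3* and *Anpep* (each 0.99). For *Pklr* they were *Copg2* (0.997), *Man2a2* (0.99) and *Cyp2c29* (0.99), and for *Pfkfb3* *Bcam* (0.995), *Pptc7* (0.98) and *Hspb1* (0.98).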

How the data were processed

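Per the labels and the study's methods, the authors prepared unstranded poly-A libraries, sequenced single-end reads, aligned them to mm10 (TopHat, Bowtie) and built a merged transcript set (Cufflinks, Cuffmerge). The authors deposited FPKM values that Cuffdiff estimated for each group from 3 libraries together, with interval bounds in FPKM and a status.

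The members and gene lists were chosen with earlier results of these data known. Groups came from the sample labels. Differences were taken on log2(FPKM + 0.1), which understates those of low genes, and the call and response rules given above were run over all genes (Python 3.11.15, pandas 2.3.3, numpy 2.4.6) and tested on simulated data. All members were described, pathway genes were named where called in at least 1 comparison (up to 6 per list, and some named always), except 1 that is not reported here, and genes most like a member were named where its groups spanned 2-fold. *Tigar*, *Mpc1* and *Mpc2* were not matched, and *Pde4d* was left out because it has more than 1 row. Promoters were from RefSeq, and gene positions from GENCODE M21. Tried alternatives were pseudocounts, FPKM and size limits, interval rules and scaling.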

Additional observations from a re-analysis of the deposited data

Results flagged for a closer look

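The ASNase response of *G6pc* differed between *Atf4*-/- and WT livers, by -1.64 on the log2 scale. The log2 difference between ASNase and PBS was -1.91 in *Atf4*-/- and -0.27 in WT. The difference exceeded its combined error of 1.62 by little, that error was built from interval bounds and not from mice, and no p-value could be had.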

How the results depend on the processing

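Each of the 9 comparisons was rerun under 8 alternatives (pseudocounts of 1 and 0.01, an FPKM limit of 1 or none, a log2 limit of 1, the combined interval, median-ratio scaling, and no interval condition). *G6pc* was called in the same 2 comparisons under all 8, and its response differed between *Atf4*-/- and WT under both pseudocounts and under the scaling (-1.62 to -1.70). For *Atf4*-/- against *Gcn2*-/- under PBS, the count of called members went from 0 to 1 (*Pfkfb3*) with the combined interval, with median-ratio scaling and with no interval condition. For *Gcn2*-/- against WT under ASNase it went from 0 to 1 (*Pklr*) with no interval condition. The other counts stayed as given. With a pseudocount of 1, *Ppargc1a* in *Atf4*-/- ASNase differed from WT ASNase by -0.96 and from *Gcn2*-/- ASNase by -0.97, since the pseudocount is near its level. Counts of members lower by over 1 were added after the data had been seen. Leaving out replicates was not run, as the table has 1 value per group. No paired analysis was possible because the columns carry no replicate numbers. Interval width limits all comparisons.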

Other observations

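Ratios between opposing enzymes were read from the group values, without error. The ratio of *Pck1* to *Pklr* FPKM was 12.2 with PBS and 11.5 with ASNase for WT, 18.3 and 31.8 for *Gcn2*-/-, and 15.2 and 12.8 for *Atf4*-/-. It was highest in *Gcn2*-/- ASNase, where *Pklr* was lowest, and close to WT in *Atf4*-/- ASNase, where both genes were low. The ratio of *Fbp1* to *Pfkl*, the liver phosphofructokinase gene, ranged from 34.5 to 94.1 and was lowest in *Gcn2*-/- ASNase. The ratio of *Pfkfb1* to *Pfkfb3* was 2.22, 1.23, 5.17, 3.01, 1.46 and 1.65, highest in *Gcn2*-/- PBS. *Pfkfb1* stayed between 15.2 and 21.6 FPKM, so this ratio followed *Pfkfb3*.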
